A study of Mus musculus with 6 samples.

Results

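The 57 genes described here encode the machinery of mitosis: the kinases that start it, the kinetochore and spindle proteins that move chromosomes, the condensin subunits that compact them and the factors that divide the cell. They were taken as a list of gene symbols and matched to gene identifiers in the read count tables. All 57 were found among 56923 identifiers, and all 57 passed the filter on low counts, which left 18273 genes for testing. The samples were whole kidneys of male mice in 2 groups of 3. Pkd1 KO mice were Pkd1flox/flox.Pax8rtTA.Tet-O-Cre and control mice were Pkd1flox/flox.Tet-O-Cre. Both groups therefore carried floxed Pkd1, the gene for polycystin-1, and a Cre recombinase gene under a tetracycline-responsive promoter, and per the labels both drank doxycycline, 2 mg/ml in 5% sucrose, for 14 days from postnatal day 28 to 42. Only the Pkd1 KO mice carried Pax8rtTA, an activator that needs doxycycline and is driven by the Pax8 promoter in renal tubules. Kidneys were taken at 10 weeks of age. The groups thus differed in the activator transgene as well as in Pkd1, and the controls are described as non-cystic. The labels do not say which animal gave each kidney, so p-values measure the spread between these samples.

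In mitosis, cyclin-dependent kinase 1 with cyclin B drives entry. Kinetochores then tie each chromosome to spindle microtubules, a checkpoint holds the cell until all are attached, and the anaphase-promoting complex destroys securin and cyclin B so that chromosomes part and the cell divides. Transcripts of these genes accumulate in G2 and M phase and are scarce in resting cells, and most tubule cells of an adult kidney are resting. In whole tissue, more dividing cells and more of these transcripts per dividing cell cannot be told apart.

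Gene counts per library were 45020173 to 62983791. Levels are given in CPM, read counts scaled to 1000000 reads per library with TMM library sizes. Pkd1, the targeted gene, had 8.77, 9.003 and 10.01 CPM in the Pkd1 KO kidneys, against 30.01, 46.4 and 23.6 CPM in the controls, and its log2 fold change was -1.85 ± 0.24 (SE, 3 kidneys a group, as for every fold change below). That count covers the whole gene and not the deleted exons alone, and with a correction for gene length and GC content its log2 fold change was -0.34 (edgeR adjusted p = 0.0644). All Pkd1 KO libraries came from 1 sequencing project and all controls from another, per the names of the tables, and genotype cannot be told apart from project. A first principal component with 70.4% of the variance placed the Pkd1 KO libraries at -66.4 to -52.4 and the controls at 24.2 to 92.6, with control 2 at the far end. Markers of kidney tubules were abundant in all libraries. Of 10 proximal tubule markers, 7 fell and 1 rose, where 24.2% of all genes tested fell and 22.7% rose. With that correction 6 fell and 0 rose, against 17.3% and 17.1% of all genes. Their summed level was 7316 to 8732 CPM in Pkd1 KO kidneys and 11633 to 18136 CPM in controls.

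Mitosis genes were higher in the Pkd1 KO kidneys across every role. Of the 57 genes, 50 rose, where 22.7% of all genes tested rose. A gene is said to have risen or fallen where the edgeR quasi-likelihood test gave a Benjamini-Hochberg adjusted p below 0.05 over all genes tested. No mitosis gene fell, against 24.2% of all genes: edgeR called 0 lower, 0 had an unadjusted p below 0.05 in that direction, and DESeq2 called 0. The median log2 fold change was 1.95 over the 57 genes and 0.026 over all genes tested. Either direction was called for 46.9% of all genes. The fold changes of the mitosis genes ranged from -0.31 for Cenpe to 3.61 for Pbk, and 28 genes rose by at least 4-fold, as 2.09% of all genes did. In 53 genes every Pkd1 KO kidney lay above every control, which held for 31.2% of all genes, and in 0 genes did every Pkd1 KO kidney lie below every control, which held for 30% of all genes. The 7 that did not pass the test were Plk1, Cenpe, Cenpf, Cdca8, Incenp, Kif18b and Pttg1, with adjusted p of 0.061 to 0.765.

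**Figure D1:**
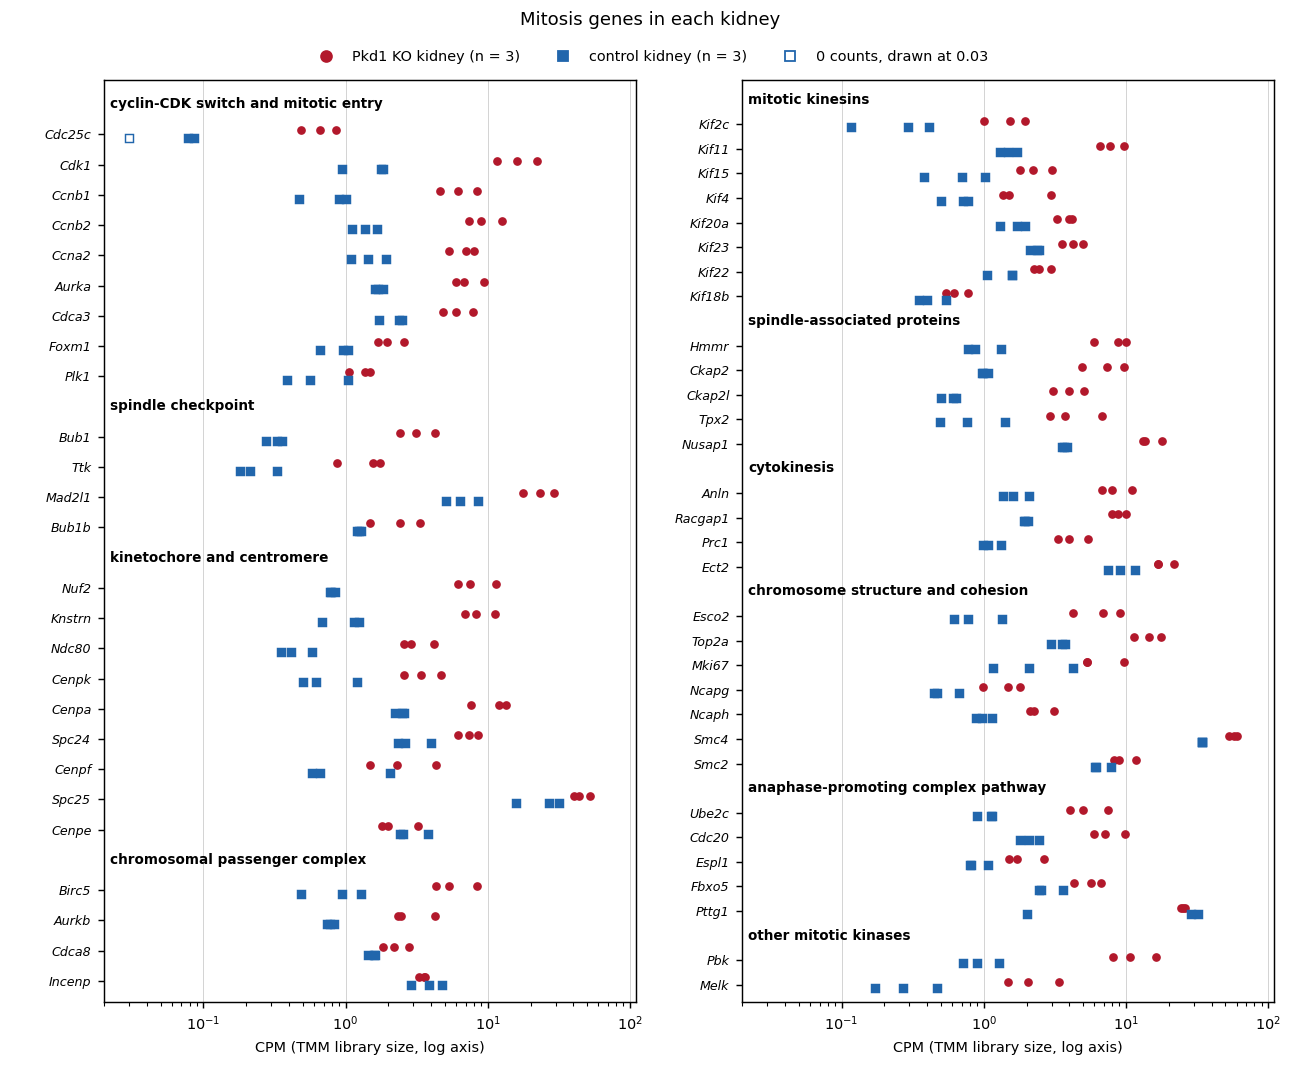
Level of each of the 57 mitosis genes in each kidney, grouped by role, as CPM on a log axis. Circles are the 3 Pkd1 KO kidneys and squares the 3 controls, with an open square for 0 counts. In 53 genes all Pkd1 KO kidneys lie above all controls.

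Many promoters of mitotic genes carry a pair of short elements, the cell cycle genes homology region (CHR) and CCAAT boxes, which in human and mouse cells tie their transcription to G2 and M phase, whereas S phase genes more often carry E2F sites. RefSeq promoter sequences of build GRCm38.p6, 250 bases before to 50 bases after the start, were matched by symbol for 46 of the 57 genes, the other 11 being Ccna2, Cdc25c, Foxm1, Spc24, Aurkb, Incenp, Kif20a, Tpx2, Smc4, Esco2 and Pbk. A CHR, spelled TTTGAA or TTTAAA on either strand, was found in 37 of these 46 promoters (80.4%), against 27.8% of all 27025 RefSeq promoters and 20.3% of the 12397 promoters of genes tested. CCAAT on either strand was found in 34 (73.9%), against 37.9% of all promoters, and both motifs in 32 (69.6%), against 10.9%. CCAAT was also frequent in other lists described below: 62.5% of further mitosis, 62.2% of S phase and 62.5% of cohesin promoters. In the constitutive anaphase-promoting complex, transport kinesin and MuvB and DREAM lists it was 33.3% to 35.7%. Cell type marker lists, with 1 to 9 promoters each, ranged from 0% to 71.4% (erythroid, 5 of 7). A high CCAAT share was thus not particular to the mitosis genes. The motif letters do not contain each other. Where a CHR was present, the nearest one lay within 50 bases of the start in 33 of 37 mitosis genes (89.2%), against 30.5% of all promoters with a CHR. The 6 promoters below were chosen for how motifs and fold changes cross: Cdk1, Ccnb2 and Hmmr carry both motifs and rose, Cenpe carries both and did not pass the test, Nuf2 carries neither and rose, and Pttg1 carries neither and did not pass the test. Capitals mark the letters of CHR and CCAAT matches on either strand, and each sequence runs 5′ to 3′ on the strand of its gene.
Cdk1: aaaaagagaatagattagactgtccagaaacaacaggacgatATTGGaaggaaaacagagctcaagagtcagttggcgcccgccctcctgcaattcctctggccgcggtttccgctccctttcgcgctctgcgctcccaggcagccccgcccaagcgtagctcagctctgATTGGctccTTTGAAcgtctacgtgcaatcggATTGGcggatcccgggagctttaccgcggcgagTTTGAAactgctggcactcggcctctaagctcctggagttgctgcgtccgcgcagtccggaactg
Ccnb2: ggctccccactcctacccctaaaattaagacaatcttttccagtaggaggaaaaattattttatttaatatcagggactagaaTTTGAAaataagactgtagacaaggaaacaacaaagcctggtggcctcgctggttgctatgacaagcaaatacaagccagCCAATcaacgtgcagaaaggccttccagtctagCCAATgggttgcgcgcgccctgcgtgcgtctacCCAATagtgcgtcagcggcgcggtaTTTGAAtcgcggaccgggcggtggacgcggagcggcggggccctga
Hmmr: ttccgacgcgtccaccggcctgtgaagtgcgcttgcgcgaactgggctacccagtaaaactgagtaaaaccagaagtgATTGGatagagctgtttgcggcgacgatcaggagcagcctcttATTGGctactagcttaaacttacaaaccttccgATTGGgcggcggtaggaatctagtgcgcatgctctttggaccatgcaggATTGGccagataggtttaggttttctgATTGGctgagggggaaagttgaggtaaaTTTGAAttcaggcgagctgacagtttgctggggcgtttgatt
Cenpe: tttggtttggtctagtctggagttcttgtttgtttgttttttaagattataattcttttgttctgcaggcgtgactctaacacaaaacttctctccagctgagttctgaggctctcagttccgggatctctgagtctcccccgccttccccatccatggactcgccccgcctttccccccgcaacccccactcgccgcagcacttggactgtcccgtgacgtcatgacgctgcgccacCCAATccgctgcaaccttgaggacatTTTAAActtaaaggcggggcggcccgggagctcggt
Nuf2: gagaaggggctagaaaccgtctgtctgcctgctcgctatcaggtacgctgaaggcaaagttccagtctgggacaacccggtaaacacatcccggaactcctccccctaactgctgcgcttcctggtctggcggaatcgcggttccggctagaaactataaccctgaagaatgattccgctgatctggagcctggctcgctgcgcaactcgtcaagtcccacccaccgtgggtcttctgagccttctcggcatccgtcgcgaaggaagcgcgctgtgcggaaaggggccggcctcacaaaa
Pttg1: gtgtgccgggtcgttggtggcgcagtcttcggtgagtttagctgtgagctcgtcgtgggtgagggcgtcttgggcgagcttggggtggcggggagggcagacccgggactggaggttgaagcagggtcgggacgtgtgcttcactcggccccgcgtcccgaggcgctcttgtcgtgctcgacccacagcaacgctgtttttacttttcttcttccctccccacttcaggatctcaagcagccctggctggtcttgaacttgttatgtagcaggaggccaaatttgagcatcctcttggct
In GRCm38.p6 the Cdk1 window is chr10:69352863-69353162 on the minus strand. The Ccnb2 window is chr9:70421505-70421804 on the minus strand. That of Hmmr is chr11:40733388-40733687 on the minus strand. That of Cenpe is chr3:135212313-135212612 on the plus strand. For Nuf2 it is chr1:169531415-169531714 on the minus strand. For Pttg1 it is chr11:43425932-43426231 on the minus strand. Among the mitosis genes themselves the median log2 fold change was 1.85 for the 37 genes with a CHR, 32 of which rose, and 2.20 for the 9 without, 8 of which rose. Those 9 were Bub1, Cenpk, Knstrn, Mad2l1, Melk, Ncaph, Nuf2, Nusap1 and Pttg1. For CCAAT the median was 1.70 in the 34 genes with it, 29 of which rose, and 2.39 in the 12 without, 11 of which rose. Whether either pair of medians differs was not tested. A match of letters describes these windows only, and binding was not measured.

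**Figure D2:**
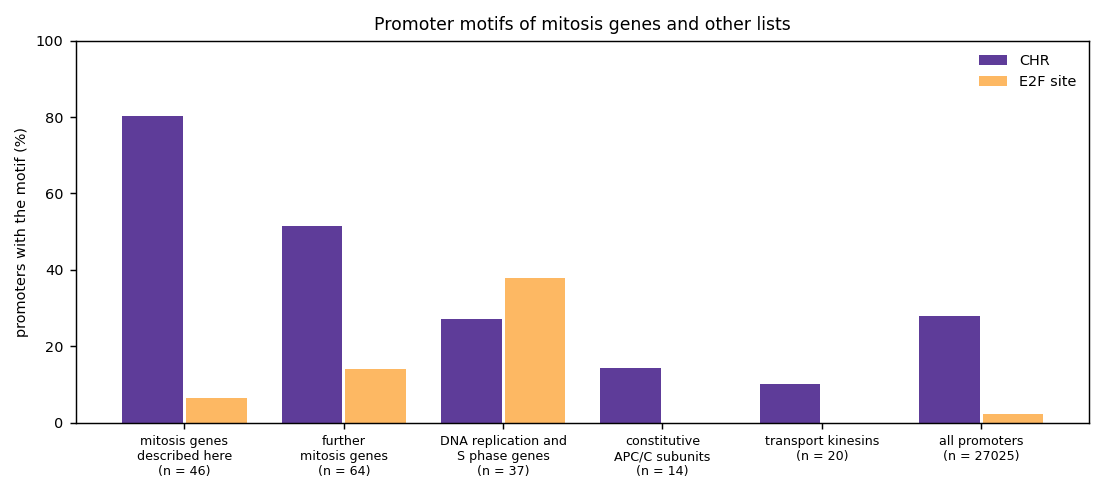
Percent of promoter windows (300 bases) that hold a CHR or an E2F site, for the mitosis genes, for related gene lists and for all RefSeq mouse promoters, with the number of promoters under each pair of bars. Of the sets drawn, CHR is most frequent in the mitosis genes (80.4%) and E2F sites in the DNA replication and S phase genes (37.8%).

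Of the 9 genes of the cyclin-CDK switch and mitotic entry, 8 rose, with a median log2 fold change of 2.19. Cdk1, the kinase that drives entry into mitosis, had 11.5, 22.3 and 15.97 CPM in the Pkd1 KO kidneys, against 1.77, 0.951 and 1.84 CPM in the controls. Its log2 fold change was 3.45 ± 0.33 (edgeR adjusted p = 0.00177), and the lowest Pkd1 KO kidney was far above the highest control. Ccnb2, a B-type cyclin partner of that kinase, had 7.42, 12.5 and 9.03 CPM in Pkd1 KO kidneys and 1.67, 1.11 and 1.37 CPM in control kidneys (log2 fold change 2.81 ± 0.26), again with no overlap. Cdc25c, the phosphatase that removes inhibitory phosphates from CDK1, was scarce, with 0.485, 0.853 and 0.663 CPM in the Pkd1 KO kidneys, against 0.0777, 0.0865 and 0 CPM in the controls. Control kidneys held 4, 5 and 0 reads of it, so its log2 fold change of 3.49 ± 0.63 rests on few counts, and it was 2.94 without control 3. Ccnb1, the other B-type cyclin, rose by 3.02 ± 0.34 on the log2 scale. Some of its reads cannot be placed with certainty, since 4 near-identical copies, Ccnb1-ps the closest at 99.2% identity over 1287 bases, share its sequence. Ccna2, the cyclin of S and G2 phase, rose by 2.19 ± 0.26, Aurka, a centrosome and spindle kinase, by 2.10 ± 0.22, and Cdca3, a factor that promotes mitotic entry, by 1.51 ± 0.25. Foxm1, the transcription factor of many G2 and M phase genes, averaged 2.07 ± 0.454 CPM in Pkd1 KO kidneys and 0.888 ± 0.2001 CPM in controls (SD, n = 3 each). The log2 fold change was 1.22 ± 0.28, and 1.91 with the length and GC correction. Plk1, the polo-like kinase that acts from entry to cytokinesis, had 1.05, 1.49 and 1.37 CPM in the Pkd1 KO kidneys, against 0.388, 1.04 and 0.561 CPM in the controls. All Pkd1 KO kidneys were above all controls, but control 2 nearly reached the lowest of them, and the log2 fold change of 0.97 ± 0.38 did not pass the test (edgeR adjusted p = 0.061). Without control 2 it was 1.44 (edgeR adjusted p = 0.00572), and with upper quartile scaling 1.14 (edgeR adjusted p = 0.033).

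All 4 genes of the spindle checkpoint rose. Bub1, a checkpoint kinase at kinetochores, had 2.43, 4.25 and 3.14 CPM in the Pkd1 KO kidneys, against 0.3302, 0.277 and 0.359 CPM in the controls, with a log2 fold change of 3.34 ± 0.30 (edgeR adjusted p = 0.00167). Ttk, the kinase that starts checkpoint signalling, had 0.869, 1.75 and 1.55 CPM in Pkd1 KO kidneys and 0.214, 0.329 and 0.1795 CPM in control kidneys (log2 fold change 2.51 ± 0.39). Neither gene's groups overlapped. Mad2l1, which with BubR1 forms the inhibitor of the anaphase-promoting complex, was the most abundant per length of the 4 and had 17.7, 29.03 and 23.4 CPM in the Pkd1 KO kidneys, against 6.43, 5.101 and 8.57 CPM in the controls (log2 fold change 1.80 ± 0.24). A near copy, Gm42430, matches 454 bases of Mad2l1 at 95.4% identity. Bub1b, the gene of BubR1, had 1.48, 3.36 and 2.43 CPM in Pkd1 KO kidneys and 1.28, 1.21 and 1.23 CPM in control kidneys. The controls lay close together and the Pkd1 KO kidneys were spread, the lowest of them just above the controls and the highest far above. BubR1 transcripts had a log2 fold change of 0.97 ± 0.31 (edgeR adjusted p = 0.0296). The call was lost without Pkd1 KO 2 (edgeR adjusted p = 0.138), without Pkd1 KO 3 (0.0753) and without control 1 (0.0818).

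Of the 9 kinetochore and centromere genes, 7 rose. The 4 subunits of the NDC80 complex, which binds microtubules, rose by unequal amounts. Nuf2 had 6.21, 11.4 and 7.48 CPM in the Pkd1 KO kidneys, against 0.777, 0.847 and 0.785 CPM in the controls, with a log2 fold change of 3.38 ± 0.27 (edgeR adjusted p = 0.00164). Spc24 had 6.17, 8.51 and 7.42 CPM in Pkd1 KO kidneys and 2.62, 2.35 and 4.02 CPM in control kidneys (log2 fold change 1.30 ± 0.24). Spc25 had 40.6, 52.3 and 43.9 CPM in the Pkd1 KO kidneys, against 27.0, 15.9 and 31.9 CPM in the controls (log2 fold change 0.87 ± 0.24, edgeR adjusted p = 0.0179). The fourth subunit, Ndc80, averaged 3.22 ± 0.864 CPM in Pkd1 KO kidneys and 0.449 ± 0.121 CPM in controls (SD, n = 3 each; log2 fold change 2.84 ± 0.31). Both subunits of the microtubule-binding end, Nuf2 and Ndc80, thus had the larger fold changes and the lower control levels per kilobase, and whether the 4 fold changes differ was not tested. Per kilobase of exon, Spc25 was the most abundant of the 57 genes in Pkd1 KO kidneys, at 14.3 CPM per kilobase, and had 7.82 in controls. Its log2 fold change was 0.30 with the length and GC correction (edgeR adjusted p = 0.201), and its call was also lost without Pkd1 KO 2 (0.0775) and without control 1 (0.0505). Knstrn, which anchors the spindle to kinetochores, had 6.91, 11.2 and 8.24 CPM in the Pkd1 KO kidneys, against 0.6798, 1.25 and 1.14 CPM in the controls and no overlap (log2 fold change 3.10 ± 0.29). Cenpa, the histone H3 variant that marks centromeres, rose by 2.17 ± 0.24 on the log2 scale, and Cenpk, of the inner kinetochore, by 2.20 ± 0.37 (1.48 with the correction). Cenpf, a large outer kinetochore protein, had 1.48, 4.33 and 2.304 CPM in the Pkd1 KO kidneys, against 0.6604, 2.06 and 0.583 CPM in the controls. Control 2 lay above Pkd1 KO 1 and the groups overlapped. The log2 fold change of 1.28 ± 0.54 did not pass the test (edgeR adjusted p = 0.0778), but without control 2 it was 2.08 (edgeR adjusted p = 0.00284), and with the correction 1.72 (edgeR adjusted p = 0.0165). Cenpe, a kinesin motor of the kinetochore, had 2.001, 3.21 and 1.82 CPM in the Pkd1 KO kidneys, against 2.52, 2.42 and 3.77 CPM in the controls. The groups overlapped, and this was the lowest fold change of the 57 genes (log2 -0.31 ± 0.29, edgeR adjusted p = 0.405).

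The chromosomal passenger complex, which corrects wrong attachments and then guides cytokinesis, split evenly: 2 of its 4 genes rose. Aurkb, its kinase, had 2.34, 4.25 and 2.46 CPM in the Pkd1 KO kidneys, against 0.777, 0.744 and 0.8302 CPM in the controls (log2 fold change 1.95 ± 0.29, edgeR adjusted p = 0.00263). Birc5, the survivin subunit, had 4.33, 8.45 and 5.303 CPM in Pkd1 KO kidneys and 1.28, 0.484 and 0.942 CPM in control kidneys (log2 fold change 2.74 ± 0.39). Both were above every control in every Pkd1 KO kidney. Cdca8, the borealin subunit, had 1.84, 2.804 and 2.19 CPM in the Pkd1 KO kidneys, against 1.44, 1.59 and 1.62 CPM in the controls. The groups did not overlap, but the log2 fold change of 0.56 ± 0.23 did not pass the test (edgeR adjusted p = 0.0773, and 0.0349 with upper quartile scaling). Incenp, the scaffold that holds the complex together, had 3.58, 3.61 and 3.299 CPM in the Pkd1 KO kidneys, against 3.85, 4.79 and 2.87 CPM in the controls, with overlapping groups. Its log2 fold change was -0.14 ± 0.22 (edgeR adjusted p = 0.632), and its sign turned with the length and GC correction (0.36), with upper quartile scaling (0.033) and without control 2 (0.019). Per kilobase of exon, Incenp had the highest control level of these 4 genes, 0.886 CPM per kilobase, against 0.265 to 0.299 for the other 3.

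Of the 8 mitotic kinesins, 7 rose. Kif11, the motor that pushes spindle poles apart, had 6.61, 9.71 and 7.67 CPM in the Pkd1 KO kidneys, against 1.48, 1.297 and 1.71 CPM in the controls and no overlap (log2 fold change 2.42 ± 0.22, edgeR adjusted p = 0.00167). Kif2c, which takes microtubules apart at centromeres, had 1.01, 1.95 and 1.53 CPM in Pkd1 KO kidneys and 0.117, 0.415 and 0.292 CPM in control kidneys (log2 fold change 2.43 ± 0.45). Kif20a, a motor of the central spindle, had 3.27, 4.198 and 3.98 CPM in the Pkd1 KO kidneys, against 1.301, 1.95 and 1.71 CPM in the controls (log2 fold change 1.21 ± 0.23). Every Pkd1 KO kidney exceeded every control in each of these. Kif20a shares 29.3% of its exon bases with Cdc23 on the opposite strand, and the counts ignored strand. Kif15, a partner of Kif11 in spindle assembly, rose by 1.72 ± 0.37 on the log2 scale. Kif4, a motor bound to chromosomes, rose by 1.54 ± 0.37 and Kif23, of the central spindle, by 0.88 ± 0.20. Kif22, which pushes chromosome arms towards the equator, rose by 0.86 ± 0.25, a call lost without Pkd1 KO 1 (edgeR adjusted p = 0.0518) and without Pkd1 KO 2 (0.0885). Kif18b, which shortens astral microtubules, had 0.546, 0.771 and 0.616 CPM in the Pkd1 KO kidneys, against 0.3496, 0.398 and 0.539 CPM in the controls. The highest control came close to the lowest Pkd1 KO kidney, and the log2 fold change of 0.59 ± 0.33 did not pass the test (edgeR adjusted p = 0.169).

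**Figure D3:**
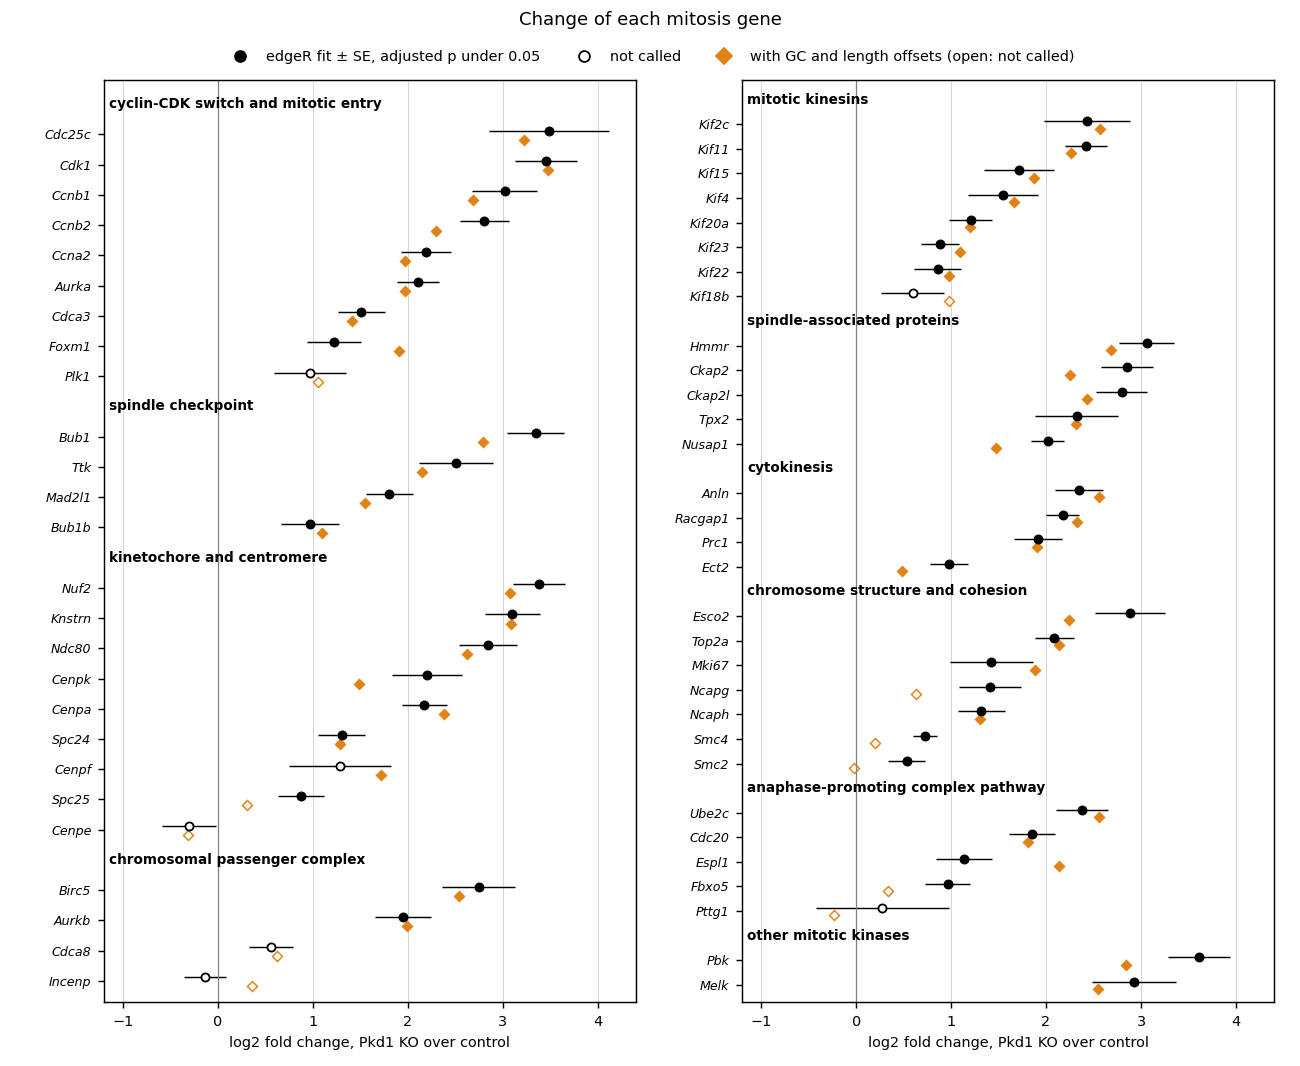
Log2 fold change of each mitosis gene, Pkd1 KO over control, with its SE, grouped by role. Filled circles passed the test (adjusted p below 0.05), open circles did not, and diamonds give the value with the length and GC correction. The 50 filled points lie between 0.53 and 3.61.

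The spindle-associated proteins and the cytokinesis genes rose without exception in this fit, 5 of 5 and 4 of 4. Hmmr, a microtubule-binding protein of spindle poles, had 5.96, 9.99 and 8.74 CPM in the Pkd1 KO kidneys, against 0.874, 0.778 and 1.32 CPM in the controls (log2 fold change 3.06 ± 0.29, edgeR adjusted p = 0.00177). Ckap2, which stabilises spindle microtubules, had 4.91, 9.66 and 7.32 CPM in Pkd1 KO kidneys and 0.971, 0.986 and 1.08 CPM in control kidneys (log2 fold change 2.85 ± 0.28, and 2.25 with the length and GC correction). Nusap1, which bundles microtubules near chromatin, had 13.7, 17.8 and 13.2 CPM in the Pkd1 KO kidneys, against 3.53, 3.84 and 3.66 CPM in the controls (log2 fold change 2.02 ± 0.18). The controls of these 3 genes lay far below the Pkd1 KO kidneys. Ckap2l, a relative of Ckap2, rose by 2.80 ± 0.27 on the log2 scale and Tpx2, the activator of Aurora A, by 2.32 ± 0.44. Of the cytokinesis genes, Anln, the anillin scaffold of the contractile ring, had 6.83, 10.99 and 7.94 CPM in the Pkd1 KO kidneys, against 2.08, 1.37 and 1.62 CPM in the controls (log2 fold change 2.35 ± 0.25). Racgap1, a subunit of centralspindlin, had 7.96, 10.02 and 8.76 CPM in Pkd1 KO kidneys and 2.04, 1.95 and 1.93 CPM in control kidneys (log2 fold change 2.17 ± 0.18, edgeR adjusted p = 0.00164). Racgap1 was even within each group, and its groups were well apart. Prc1, which bundles the central spindle, rose by 1.92 ± 0.25. Ect2, the exchange factor that activates RhoA at the cleavage site, had 16.9, 21.6 and 16.7 CPM in the Pkd1 KO kidneys, against 9.01, 7.52 and 11.6 CPM in the controls. It had the highest control level per kilobase of the 4 and the smallest fold change (log2 0.97 ± 0.20), without overlap of the groups. With the length and GC correction Ect2 had 0.48 (edgeR adjusted p = 0.0325), and with a replicate block added to the correction the call was lost (edgeR adjusted p = 0.0602).

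All 7 genes of chromosome structure and cohesion rose, but 4 did so with the length and GC correction. Top2a, the topoisomerase that disentangles sister chromatids, had 11.3, 17.7 and 14.6 CPM in the Pkd1 KO kidneys, against 3.57, 2.99 and 3.72 CPM in the controls (log2 fold change 2.09 ± 0.21, edgeR adjusted p = 0.00177). Esco2, which acetylates cohesin in S phase, had 4.22, 9.05 and 6.85 CPM in Pkd1 KO kidneys and 0.777, 0.623 and 1.35 CPM in control kidneys (log2 fold change 2.89 ± 0.37, and 2.24 with the correction). The groups of both genes were apart. Mki67, the gene of the proliferation marker Ki-67 that coats mitotic chromosomes, averaged 6.75 ± 2.52 CPM in Pkd1 KO kidneys and 2.50 ± 1.59 CPM in controls (SD, n = 3 each). With a log2 fold change of 1.42 ± 0.44 it was called (edgeR adjusted p = 0.0263), but not without Pkd1 KO 2 (0.112) or without control 1 (0.105). The 4 condensin subunits all had fold changes below the median of the mitosis genes. Smc4, a condensin ATPase, had 52.7, 60.2 and 57.3 CPM in the Pkd1 KO kidneys, against 34.3, 34.3 and 34.4 CPM in the controls (log2 fold change 0.72 ± 0.12, edgeR adjusted p = 0.0033), and 0.20 with the correction (edgeR adjusted p = 0.195). Its partner Smc2 had 8.31, 11.8 and 8.97 CPM in Pkd1 KO kidneys and 6.08, 7.83 and 6.19 CPM in control kidneys. The lowest Pkd1 KO kidney was near control 2, and the log2 fold change of 0.53 ± 0.19 barely passed the test (edgeR adjusted p = 0.0494). That call was lost with RLE scaling (edgeR adjusted p = 0.059), in DESeq2 (adjusted p = 0.0587) and without any 1 library other than control 2, and with the correction the value was -0.023 (edgeR adjusted p = 0.936). Ncapg, a condensin I subunit, rose by 1.41 ± 0.33 on the log2 scale and had 0.63 with the correction (edgeR adjusted p = 0.163), whereas Ncaph, of the same complex, rose by 1.32 ± 0.25 and had 1.30.

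Of the 5 genes in the anaphase-promoting complex pathway, 4 rose. Cdc20, the activator that brings substrates to the complex, had 5.98, 9.87 and 7.07 CPM in the Pkd1 KO kidneys, against 2.098, 2.46 and 1.795 CPM in the controls (log2 fold change 1.85 ± 0.24, edgeR adjusted p = 0.00234). Ube2c, the ubiquitin-conjugating enzyme of the complex, had 4.04, 7.43 and 4.97 CPM in Pkd1 KO kidneys and 1.15, 0.899 and 1.12 CPM in control kidneys (log2 fold change 2.38 ± 0.28). Neither overlapped between groups, and Ube2c shares 22.8% of its exon bases with Tnnc2. Fbxo5, the inhibitor EMI1, rose by 0.96 ± 0.24 on the log2 scale. It had 0.34 with the length and GC correction (edgeR adjusted p = 0.205) and was not called without Pkd1 KO 2 (0.0576) or without control 1 (0.0524). Espl1, the separase that cuts cohesin, rose by 1.13 ± 0.29, had 2.14 with the correction, and was not called without Pkd1 KO 2 (0.067) or without control 1 (0.0516). Pttg1, the securin that blocks separase, had 25.9, 24.5 and 25.4 CPM in the Pkd1 KO kidneys, against 31.9, 2.02 and 28.8 CPM in the controls. The Pkd1 KO kidneys were nearly equal and 2 controls lay above them, while control 2 was far below every other library. Its log2 fold change was 0.27 ± 0.70 (edgeR adjusted p = 0.765), and -0.30 without control 2 (edgeR adjusted p = 0.0834). Per kilobase of exon it ranked beside Spc25 and Smc4 as the most abundant of the 57 genes, at 12.6 CPM per kilobase in Pkd1 KO kidneys and 10.5 in controls.

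Both remaining kinases rose strongly. Pbk, a mitotic kinase of the MAP kinase kinase family, had 8.17, 16.3 and 10.7 CPM in the Pkd1 KO kidneys, against 1.28, 0.709 and 0.898 CPM in the controls. The log2 fold change of 3.61 ± 0.33 was the largest of the 57 in this fit (edgeR adjusted p = 0.00167). With the correction it was 2.85, below Cdk1 (3.48), Cdc25c (3.22), Knstrn (3.09) and Nuf2 (3.07). A near copy, Gm12387, matches 955 of its bases at 95.4% identity. Melk, a kinase of the AMPK-related family, had 1.48, 3.36 and 2.04 CPM in Pkd1 KO kidneys and 0.272, 0.173 and 0.471 CPM in control kidneys (log2 fold change 2.93 ± 0.44). The groups of both genes were far apart.

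Across almost the whole set the same kidney was highest. Pkd1 KO 2 was the highest Pkd1 KO kidney in 56 of the 57 genes, Pttg1 being the exception, and in 35.3% of all genes tested. Among other lists described below, it was highest in 27 of 46 S phase and 8 of 12 cohesin genes. The counts were 11 of 27 transport kinesins, 4 of 11 MuvB and DREAM genes and 5 of 15 constitutive anaphase-promoting complex subunits. The median ratio of a mitosis gene to its control mean was 3.12 in Pkd1 KO 1, 4.84 in Pkd1 KO 2 and 3.52 in Pkd1 KO 3. The controls had no such order, with median ratios of 0.989, 0.924 and 1.06. Without Pkd1 KO 2, 43 of the 57 genes rose and the median log2 fold change was 1.70, while the count of all genes called dropped to 5071, against 8579 with it. Without control 2, 52 rose. The mitosis genes summed to 377, 556 and 440 CPM in Pkd1 KO kidneys and 184, 142 and 192 CPM in controls.

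Markers of several other cell types were also highest in Pkd1 KO 2 among the Pkd1 KO kidneys, against the 35.3% of all genes. These were 12 of 13 macrophage, 8 of 10 fibroblast and 8 of 11 injured tubule markers. So were 8 of 12 T and NK cell markers and 4 of 5 podocyte markers. Other lists had smaller shares, with 3 of 6 thick limb and distal tubule, 3 of 9 endothelial and 3 of 10 proximal tubule markers. Pkd1 KO 2 was highest in 2 of 7 collecting duct markers. It was highest in 0 of 8 B and plasma cell, 0 of 7 erythroid and 0 of 3 neutrophil markers. The calls below are to be read against all genes tested, of which 22.7% rose and 24.2% fell, or 17.1% and 17.3% with the length and GC correction. Macrophage markers rose in 9 of 13 and fell in 1, and with the correction rose in 8 and fell in 1. They summed to 238, 389 and 339 CPM in Pkd1 KO kidneys and 171, 128 and 151 CPM in controls. Injured tubule markers rose in 6 of 11 and fell in 2, or 4 and 2 with the correction, and summed to 888, 1365 and 1199 CPM in Pkd1 KO kidneys and 1017, 837 and 1014 CPM in controls. Fibroblast markers rose in 4 of 10 and fell in 3, or 4 and 1 with the correction, and summed to 298, 429 and 378 CPM in Pkd1 KO kidneys and 373, 319 and 300.3 CPM in controls. These 3 sums shared the order of the summed mitosis genes among the Pkd1 KO kidneys, with Pkd1 KO 1 lowest. T and NK cell markers had that order too, with 11.8, 19.0 and 14.6 CPM in Pkd1 KO kidneys and 8.88, 6.99 and 8.03 CPM in controls, and rose in 7 of 12, or 4 with the correction. B and plasma cell markers were highest in Pkd1 KO 1, with 125, 60.003 and 34.99 CPM in Pkd1 KO kidneys and 19.2, 23.0 and 18.9 CPM in controls, and rose in 4 of 8 tested, or 2 with the correction. Of 7 neutrophil markers 3 were tested and 2 rose, but neither call held with the correction, and Ly6g and Mpo were at 0 in all 6 libraries. The neutrophil sum was at most 2.76 CPM in Pkd1 KO kidneys and 1.48 CPM in controls. Erythroid markers, 7 tested, ranged from 69.4 to 474 CPM in Pkd1 KO kidneys and 87.9 to 250 CPM in controls, and 1 fell, a call lost with the correction. Endothelial markers fell in 7 of 9 and rose in 2, but with the correction fell in 3 and rose in 1, and their median log2 fold change was -0.75, against -0.096 with the correction. Markers of the thick limb and distal tubule fell in 4 of 6, or 6 with the correction. Those of the collecting duct fell in 5 of 7 and rose in 1, or 4 and 0 with it. Podocyte markers fell in 4 of 5, or 1 with it. Which of these cell types, or of the tubule cells, held the mitosis transcripts was not measured, and the part of each in the result was not tested.

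**Figure D4:**
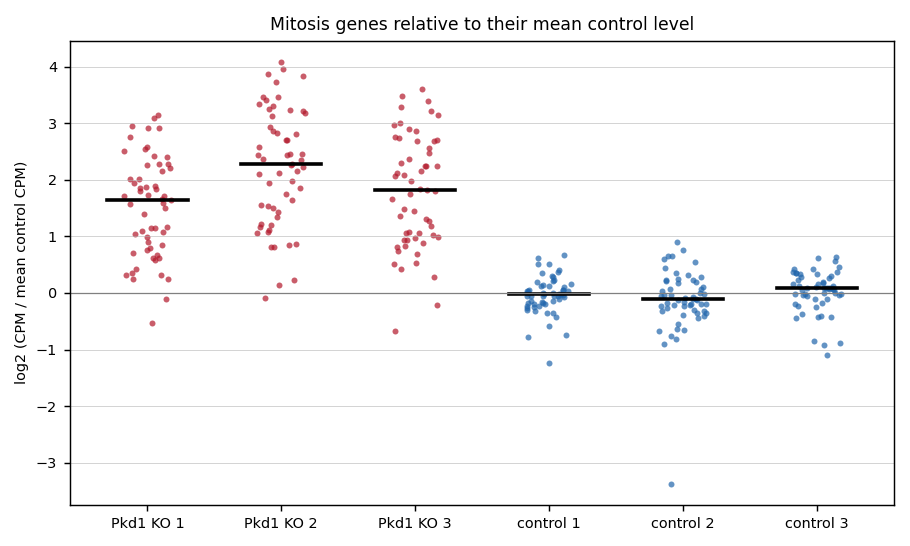
Log2 ratio of each mitosis gene's CPM to its mean over the 3 controls, in each library, with points for genes and a bar at the median. The Pkd1 KO libraries have median ratios of 3.12, 4.84 and 3.52, and the controls lie around 1 (0 on the log2 axis). Cdc25c has 0 counts in control 3, which is left out.

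Fold changes were larger where the control level was lower. Split by control level per kilobase into groups of 19 genes, the median log2 fold change was 2.43 in the lowest group, 2.17 in the middle and 1.51 in the highest, with 17, 16 and 17 genes called. Spearman's rho between the 2 measures was -0.41 across the 57 genes and -0.18 across all genes tested, and the measures share the control values. Genes are not independent replicates, so no p is given. Across all genes the log2 fold change also ran against exon length (rho -0.39) and GC content (rho -0.39). Among the mitosis genes these were -0.07 and -0.22. Their median exon length was 4919 bases and their median GC content 46.0%, against 3787 bases and 49.4% over all genes tested. With fitted offsets for both properties, 46 of the 57 mitosis genes rose, where 17.1% of all genes rose, and their median log2 fold change was 1.91. Of the 50 genes called without offsets, 45 were also called with them. Some reads cannot be assigned with certainty for 17 of the 57 genes, which share exon bases with another gene, 7 of them over 10% of those bases.

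The further mitosis genes, 75 in number and none of them among the 57, also rose in most cases. Of the 75, 50 rose and 2 fell, with a median log2 fold change of 1.11. Pkd1 KO 2 was the highest Pkd1 KO kidney in 55 of the 75. Depdc1a, a DEP domain protein and the largest change of this list, had 1.42, 2.76 and 1.88 CPM in the Pkd1 KO kidneys, against 0.0388, 0.0519 and 0.112 CPM in the controls (log2 fold change 4.90 ± 0.46, and 3.87 with the length and GC correction). Its control levels were similarly low to those of Cdc25c, so the size of this fold change also rests on few control reads. Ska1, of the complex that couples kinetochores to shrinking microtubules, had 1.52, 2.95 and 2.02 CPM in Pkd1 KO kidneys and 0.175, 0.104 and 0.292 CPM in control kidneys (log2 fold change 3.53 ± 0.43). Neither had overlapping groups. Cdca5, the gene of sororin, which protects cohesion, rose by 2.98 ± 0.35 on the log2 scale, and Knl1, the kinetochore scaffold of the checkpoint, by 2.88 ± 0.31. Those that fell were Mad1l1, the partner of Mad2, with 3.396, 2.41 and 3.01 CPM in the Pkd1 KO kidneys, against 10.4, 9.42 and 6.64 CPM in the controls (log2 fold change -1.58 ± 0.23), and Cit, citron kinase, with 2.67, 2.77 and 3.28 CPM in the Pkd1 KO kidneys, against 5.05, 11.3 and 3.23 CPM in the controls (log2 fold change -1.17 ± 0.40). Cit was highest in control 2, and its sign turned with the correction (0.24, edgeR adjusted p = 0.379). In this list 1 gene was called lower without Pkd1 KO 1, 2 or 3, control 1 or control 2 in turn.

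DNA replication and S phase genes rose in 27 of 46 and fell in 2, with a median log2 fold change of 0.82. Of all genes, 22.7% rose and 24.2% fell. With the length and GC correction 34 of the 46 rose and 0 fell, against 17.1% and 17.3% of all genes, and the median was 0.75. Pclaf, a PCNA-binding factor, had 5.92, 11.8 and 8.48 CPM in the Pkd1 KO kidneys, against 1.32, 0.778 and 1.23 CPM in the controls (log2 fold change 2.98 ± 0.32). Rrm2, the ribonucleotide reductase subunit made in S phase, had 17.4, 31.9 and 24.4 CPM in Pkd1 KO kidneys and 5.03, 5.69 and 6.08 CPM in control kidneys (log2 fold change 2.13 ± 0.23). In both, every Pkd1 KO kidney was above every control. The E cyclins of S phase entry rose by 2.07 ± 0.38 for Ccne2 (1.13 with the correction) and 1.93 ± 0.42 for Ccne1 on the log2 scale. Chaf1a, a histone chaperone subunit, and Mcm2, a helicase subunit, had log2 fold changes of -1.39 and -0.75 and fell, and with the correction they had -0.53 (edgeR adjusted p = 0.14) and -0.17 (edgeR adjusted p = 0.313). Without Pkd1 KO 2, 1 gene of this list was called lower. An E2F site, spelled TTTCCCGC, TTTGGCGC, TTTCGCGC or TTTGCCGC on either strand, was found in 14 of 37 promoters of this list (37.8%), in 3 of 46 promoters of the mitosis genes (6.52%) and in 2.32% of all promoters. The cohesin and the MuvB and DREAM lists had shares close to that of the S phase genes, 3 of 8 (37.5%) and 3 of 9 (33.3%). A CHR was found in 27.0% of the S phase promoters and in 51.6% of those of the further mitosis genes.

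Constitutive subunits of the anaphase-promoting complex, present through the whole cell cycle, rose in 5 and fell in 5 of 15 (33.3% each), with a median log2 fold change of 0.15. Of all genes 22.7% rose and 24.2% fell, so neither share was far from the background. Anapc10 (log2 1.01 ± 0.22), Cdc26 (0.94 ± 0.18), Anapc16 (0.93 ± 0.21) and Anapc11 (0.87 ± 0.20) rose, whereas Anapc2 (-0.78 ± 0.16) and the activator gene Fzr1 (-0.76 ± 0.15) fell. Anapc10 and Fzr1 were not called with the correction (log2 0.41 and 0.14). The number that fell was 3 without Pkd1 KO 2, without Pkd1 KO 3 or without control 1. The list called transport kinesins holds kinesins other than the mitotic motors. It also holds Klc1, Klc2, Klc4 and Kifap3, which are accessory chains, and not every member is a cargo motor. Of its 27 genes tested, 20 fell, and the median log2 fold change over the 27 was -0.87. None rose: edgeR called 0 higher, 0 had an unadjusted p below 0.05 in that direction, and DESeq2 called 0. Kif21a, a motor that restrains microtubule growth, had 28.2, 31.5 and 26.9 CPM in the Pkd1 KO kidneys, against 84.8, 165 and 47.5 CPM in the controls (log2 fold change -1.78 ± 0.38). The groups did not overlap. Kif26b (log2 -2.25 ± 0.58) and Kif26a (log2 -1.99 ± 0.39) fell, and neither was called with the correction (log2 -0.93 and -0.58), while Kif13b had -1.62 ± 0.30 and -0.52. With the correction 10 of the 27 fell and 1 rose, and without Pkd1 KO 2 the count that fell was 13.

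Cohesin genes fell in 6 of 12 and rose in 1, with a median log2 fold change of -0.52, where 24.2% of all genes fell and 22.7% rose. With the length and GC correction 7 fell and 1 rose, against 17.3% and 17.1% of all genes, and the median was -0.38. Smc1a, a core ATPase of the ring, had 20.01, 20.8 and 19.1 CPM in the Pkd1 KO kidneys, against 45.3, 76.04 and 30.6 CPM in the controls (log2 fold change -1.34 ± 0.29). Its groups were apart. The loader gene Nipbl (log2 -0.95 ± 0.21), the core gene Smc3 (-0.81 ± 0.23) and the release factor gene Wapl (-0.57 ± 0.18) fell too, and Esco1, an acetyltransferase, rose (0.84 ± 0.16, and 0.25 with the correction, edgeR adjusted p = 0.115). Only 2 cohesin genes fell without Pkd1 KO 1, 2 or 3 or control 1 in turn. Genes of the MuvB and DREAM complex, which binds the CHR, rose in 3 of 11 (27.3%) and fell in 1 (9.09%). Their median log2 fold change was 0.27. Lin54 of this list was not matched to an identifier and is not among the 11, and Mybl2 is also counted among the further mitosis genes. The share that rose was near the 22.7% of all genes. Rbbp4 (log2 0.88 ± 0.21), Lin52 (0.62 ± 0.15) and Rbl1 (0.58 ± 0.14) rose and E2f4 fell (-0.48 ± 0.15). With the correction Lin52, Rbl1 and E2f4 were not called (edgeR adjusted p = 0.325, 0.104 and 0.0922). Without Pkd1 KO 2, 1 gene of this list rose. The number that fell was 0 without any 1 Pkd1 KO kidney or control 1, and 2 without control 3.

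**Figure D5:**
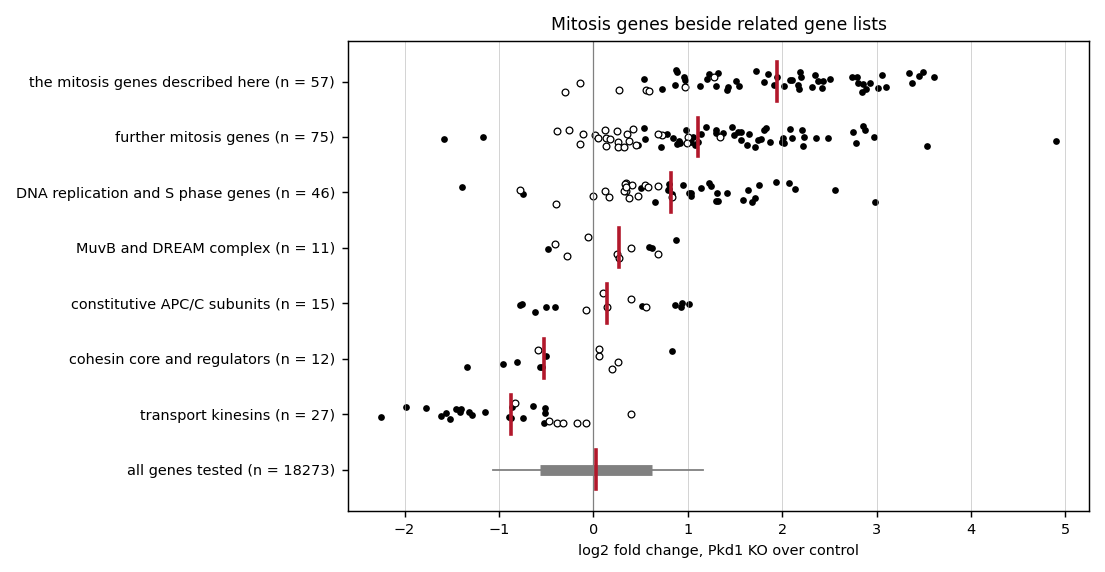
Log2 fold changes (Pkd1 KO over control) of the mitosis genes and of related gene lists, with a point for each gene (filled where it passed the test) and a red bar at the median. For all genes tested, the grey box spans percentiles 25 to 75 and the thin line percentiles 10 to 90. The medians run from 1.95 in the mitosis genes to -0.87 in the transport kinesins.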

How the data were processed

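Poly-A RNA of whole kidneys was sequenced, per the labels' protocols. What the authors deposited were raw counts of reads for each gene, not normalized. Tools and build in the submitters' processing notes are STAR 2.6.1e, cutadapt 4.0, FastQC 0.11.8 and GRCm39. The annotation used for counting is not stated there. The first strand took 49.1% to 50.0% of stranded reads, so counts that ignore strand were used, and antisense partners cannot be told apart. Reads in lines that name no gene were left out. They made up 25.4% to 26.3% of the Pkd1 KO libraries and 22.9% to 23.8% of the controls. Among them, reads that map to several places were 12.2% to 13.4% of the Pkd1 KO libraries and 9.00% to 10.7% of the controls. Both runs of control 1 were summed. Symbols, exon lengths and GC content came from GENCODE M21, joined by identifier, and near copies (95% identity over 200 bases) from BLAST 2.17.0. The 57 genes and the other lists were chosen with earlier results of these data known.

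Genes past edgeR's filterByExpr were fitted with edgeR 4.0.16 in R 4.3.3 (TMM, quasi-likelihood test, Benjamini-Hochberg threshold 0.05). This fit, and none of the alternatives below, was tested on simulated data in which far fewer genes changed than were called here. The common biological coefficient of variation was 21.4%. Each SE was taken as the size of the log2 fold change over the root of its F statistic. Alternatives were RLE and upper quartile scaling, no filter, DESeq2 1.42.0, the larger run of control 1, each library left out, a replicate block, and loess offsets for GC content and length (span 0.3, 17785 genes). All 57 genes may be named. Values per sample are given, within each role, for the 2 called genes with the largest change, the 2 most abundant per length and each gene not called. Of the other lists, the rule names up to 4 called genes in the list's main direction and up to 2 opposite ones (mean log2 CPM of at least 0).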

Additional observations from a re-analysis of the deposited data

How the results depend on the processing

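Under all 14 alternatives 43 to 53 of the 57 mitosis genes were higher and 0 lower, the median log2 fold change was 1.70 to 2.11, and 40 of the 50 called genes were called every time. Leaving out 1 library gave 43 to 52 mitosis genes higher and 5071 to 10318 genes called in all. In the other lists, leaving out 1 library gave 1 to 3 further mitosis genes, 3 to 5 anaphase-promoting complex genes, 13 to 22 transport kinesins, 2 to 7 cohesin genes, 1 to 2 S phase genes and 0 to 2 MuvB genes lower, and 1 to 4 MuvB genes higher. Upper quartile scaling moved the median of all genes to 0.19, against 0.026, and the share of higher calls to 60.5%, against 48.4%. It left 1 further mitosis gene, 3 anaphase-promoting complex genes, 3 cohesin genes and 0 MuvB genes lower, and 1 transport kinesin and 2 cohesin genes higher. Deviations from the group mean had correlations of 0.038, -0.084 and -0.029 between same-numbered samples, and of -0.0995 to 0.0973 between the others. With 3 samples a group this cannot show whether the numbers pair samples. The replicate block kept 50 mitosis genes higher, without Bub1b and Smc2 and with Plk1 and Cenpf. It left 7397 genes called, 1 further mitosis gene lower and 0 MuvB genes lower. Length and GC offsets left 2 anaphase-promoting complex genes, 10 transport kinesins, 0 S phase genes and 0 MuvB genes lower, and 1 transport kinesin higher. Offsets with the replicate block gave 5399 genes called, 46 mitosis genes higher, 3 anaphase-promoting complex genes and 1 transport kinesin higher, and 0 anaphase-promoting complex, 10 transport kinesin, 0 S phase and 0 MuvB genes lower. The sign turned for Incenp (0.033 with upper quartile scaling, 0.36 with offsets, 0.37 with offsets and block, -0.35 without control 3 to 0.019 without control 2), Smc2 (-0.023 with offsets, -0.011 with offsets and block) and Pttg1 (-0.24 with offsets, -0.30 without control 2 to 0.70 without control 1). The cause was not tested. Cdc25c, with 0 to 5 reads in controls, is limited by depth, and the control levels of Depdc1a were similarly low. Of the 57 genes, 3 had fewer than 10 reads in at least 1 library, namely Cdc25c, Ttk and Kif2c.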

Other observations

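The low value of Pttg1 in control 2 was looked at after it was seen. Of 14231 genes tested with a mean of at least 1 CPM, 11 had less than 0.1 times the lowest other library in control 2. They were Ifi208, Gm3375, Ucp1, Ang, Ccnb1ip1, Pttg1, Tgtp1, 9930111J21Rik2, 2610507I01Rik, 8430426J06Rik and AC115117.1. Of these, 4 lie on chromosome 11, namely Pttg1, Tgtp1, 9930111J21Rik2 and 2610507I01Rik, and Ang and Ccnb1ip1 both lie on chromosome 14. The share of all tested genes on each chromosome was not counted, so whether the 11 genes cluster was not tested. Tgtp1, an interferon-induced GTPase gene, had 4.35, 10.4 and 9.55 CPM in the Pkd1 KO kidneys, against 3.38, 0 and 3.702 CPM in the controls. 2610507I01Rik had 29.2, 30.2 and 30.6 CPM in Pkd1 KO kidneys and 15.2, 1.28 and 20.1 CPM in control kidneys. Ccnb1ip1, the gene of a ubiquitin ligase known for its role in meiotic crossing over, had 3.34, 4.02 and 2.005 CPM in the Pkd1 KO kidneys, against 1.69, 0 and 1.35 CPM in the controls.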
